A study of Mus musculus with 5 samples.

Results

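The CC chemokines described here were 10 genes, *Ccl2*, *Ccl3*, *Ccl4*, *Ccl5*, *Ccl6*, *Ccl7*, *Ccl8*, *Ccl9*, *Ccl11* and *Ccl12*, taken by symbol from the 27998 genes measured in single cells of the mouse mammary gland. They were selected on their measured UMI counts by cell type and library in an earlier analysis of the same data, so their levels and ratios are given as a description, without a test. The 4th mammary glands of ovariectomized female BALB/cj mice, 30 weeks old, were digested without sorting after 1 week of treatment that began 20 weeks after surgery, and about 4000 cells were loaded for each of 5 libraries of 3′ transcript counts. The control library (OVX) came from mice that received only DMSO by injection, and OVX_E2 from mice given estradiol (E2, 1 µg per animal) daily by the intraperitoneal route. OVX_E2_P4 mice received the same E2 together with progesterone (P4, 0.1 mg per animal). OVX_E2_PBDE and OVX_E2_P4_PBDE mice had in addition a diet with polybrominated diphenyl ethers (PBDEs), a class of flame retardants, at 7.1, 0.4 and 0.9 mg per kg of food for the congeners BDE-47, BDE-100 and BDE-153, while the other 3 groups ate a matched diet with DMSO. Every group, the control included, lacked ovaries. Each group was 1 library and the number of mice in a library is not given in the sources used here, so no difference between groups has a replicate check. Both PBDE libraries carry library numbers apart from those of the other 3, so that PBDE exposure and a batch that follows these numbers cannot be told apart.

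CC chemokines are small secreted proteins with a pair of adjacent cysteines near the amino terminus. They bind G protein-coupled receptors on leukocytes and direct the migration of monocytes, eosinophils, T cells and dendritic cells into tissue. In the mammary gland, macrophages and eosinophils recruited by such signals are known to take part in duct growth.

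The 10 genes formed 2 blocks on mouse chromosome 11 (build GRCm38). *Ccl2*, *Ccl7*, *Ccl11*, *Ccl12* and *Ccl8* lay within 81.23 kb, from position 82035571 to 82116799, all on the plus strand. *Ccl5*, *Ccl9*, *Ccl6*, *Ccl3* and *Ccl4* lay within 138.9 kb, from 83525778 to 83664683, and the gap between the blocks was 1409 kb. The blocks differed in the cells that held them. Members of the first block had 90.7% (*Ccl8*) to 97.2% (*Ccl12*) of their UMIs (unique transcript counts) in fibroblasts, whereas 4 of 5 members of the second block had their largest share in myeloid cells. The fifth, *Ccl5*, was divided among lymphoid, epithelial and other cells. These are shares of UMIs, and the *Ccl12* share does not stand for a higher level in fibroblasts than in myeloid cells, as given further on.

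RefSeq promoters, defined as the 250 bases before and 50 after the gene start, were at hand for 5 of the 10 genes (*Ccl3*, *Ccl6*, *Ccl8*, *Ccl9* and *Ccl12*). The closest pair among them was *Ccl6* and *Ccl9*, neighbours that also shared the same myeloid cells in the counts described further on, and both are printed for that reason. They are given 5′ to 3′ on the minus strand of GRCm38.p6, *Ccl6* from chr11:83593038-83593337 and *Ccl9* from chr11:83578587-83578886, with the best local alignment of the pair in capitals. That stretch covered 74 aligned columns, of which 58 (78.4%) were identical, and lay at bases 192 to 265 in *Ccl6* and 233 to 299 in *Ccl9*.
Ccl6: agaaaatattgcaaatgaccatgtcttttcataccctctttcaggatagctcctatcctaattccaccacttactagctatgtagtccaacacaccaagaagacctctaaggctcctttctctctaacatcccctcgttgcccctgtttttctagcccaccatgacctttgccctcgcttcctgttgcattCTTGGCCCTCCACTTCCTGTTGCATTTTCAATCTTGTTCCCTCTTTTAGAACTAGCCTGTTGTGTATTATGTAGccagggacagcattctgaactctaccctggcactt
Ccl9: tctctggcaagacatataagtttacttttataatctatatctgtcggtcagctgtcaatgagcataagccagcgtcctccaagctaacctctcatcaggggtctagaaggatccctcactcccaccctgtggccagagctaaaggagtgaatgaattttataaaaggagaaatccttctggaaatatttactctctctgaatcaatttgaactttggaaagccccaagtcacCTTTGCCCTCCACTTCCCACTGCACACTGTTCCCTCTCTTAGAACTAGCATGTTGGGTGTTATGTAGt
The next pair, *Ccl8* and *Ccl12*, aligned over 199 columns with 60.8% identity. Of 5 motifs searched on both strands, the NF-kB core GGGANNTTC was in none of the 5 promoters and in 3.94% of 32851 promoters of the same length. The AP-1 motif TGANTCA was in *Ccl9* alone of the 5 and in 7.81% of all promoters, and the interferon core GAAANNGAA in *Ccl3* alone and in 8.56%. The STAT motif TTCNNNGAA was in none of the 5 against 8.30% of all promoters, and the estrogen response half-site AGGTCA was in *Ccl6* and *Ccl3* against 16.3%. These are letter matches within a window and say nothing of binding.

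The 5 libraries held 14344 barcodes, of which 14317 passed the filters on genes, UMIs and mitochondrial share, with 19982067 to 42012988 UMIs and a median of 5345 to 8698 UMIs per barcode in a library. Any pair of libraries shared 3 to 15 barcodes. Clusters were named from fixed marker genes and are hence fibroblast-like, myeloid-like, lymphoid-like and epithelial-like, called fibroblast, myeloid, lymphoid and epithelial from here on. There were 7259 fibroblast, 6292 epithelial, 264 myeloid and 101 lymphoid barcodes. The median fibroblast barcode held 145 UMIs of the fibroblast markers (*Col1a1*, *Dcn* and others) against 9 in epithelial and 5 in myeloid barcodes, and the median myeloid barcode held 50 UMIs of pan-hematopoietic markers against 0 in fibroblasts. OVX_E2 had a single lymphoid barcode and gives no lymphoid value. With a finer clustering (resolution 1.0) it had 15, so the single barcode reflects the clustering used. A further 146 hematopoietic barcodes also led with fibroblast or epithelial genes and were kept out of every class by thresholds set after the data were seen; they were 39.5% of hematopoietic barcodes in OVX, 8.11% for OVX_E2, 30.3% for OVX_E2_PBDE, 20.5% for OVX_E2_P4 and 25.0% for OVX_E2_P4_PBDE.

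The members summed to 261872 UMIs, and 3 of them held most of these: *Ccl2* with 92578, *Ccl7* with 84155 and *Ccl11* with 62205 UMIs. *Ccl5* had 11000 and *Ccl8* 6060 UMIs. The myeloid genes were far rarer, at 2389 UMIs for *Ccl6*, 1632 for *Ccl9*, 1307 for *Ccl4* and 440 for *Ccl3*, and *Ccl12* was at 106. Per 1000000 UMIs of the whole library (CPM, counts per 1000000), the 10 genes together took 4019 for OVX, 1185 for OVX_E2, 2178 for OVX_E2_PBDE, 1026 for OVX_E2_P4 and 1012 for OVX_E2_P4_PBDE. The number of fibroblast barcodes in these libraries was 2565, 940, 1918, 949 and 887, so the 2 libraries with the most fibroblasts also had the highest whole-library level, and comparisons were made within a class. From here on CPM is per 1000000 UMIs of the class, and since each transcript gives 1 tag at its 3′ end, levels of different genes are not divided by length. Intervals are 95% intervals and cover counting error only.

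**Figure D1:**
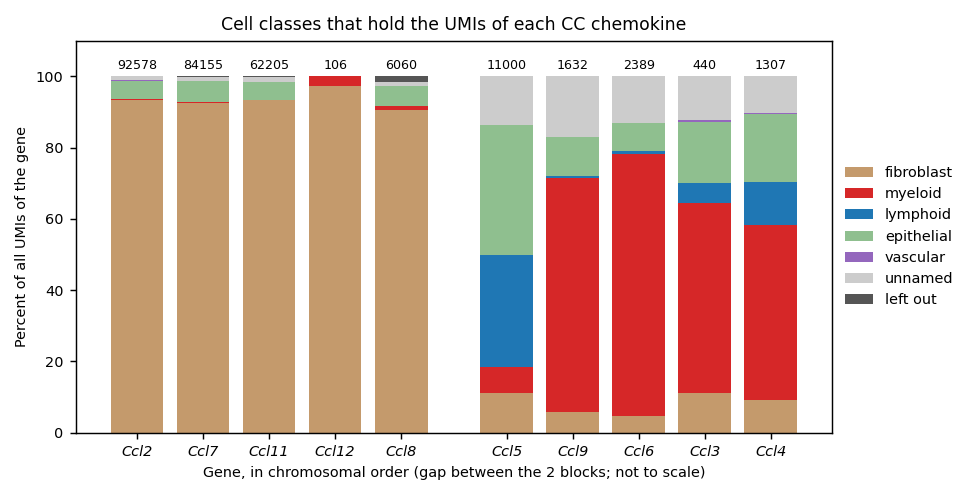
Share of each gene's UMIs (y axis, percent) by cell class over all 5 libraries, with the genes in chromosomal order on the x axis and the total UMIs above each bar. The fibroblast share was over 90% for *Ccl2*, *Ccl7*, *Ccl11*, *Ccl12* and *Ccl8*, and the myeloid share led for *Ccl9*, *Ccl6*, *Ccl3* and *Ccl4*.

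*Ccl2*, the main monocyte chemoattractant and ligand of *Ccr2*, was at 1704 CPM in OVX fibroblasts, 1633 for OVX_E2, 2608 for OVX_E2_PBDE, 1678 for OVX_E2_P4 and 1401 for OVX_E2_P4_PBDE. OVX_E2_PBDE stood highest and OVX_E2_P4_PBDE lowest, with the other 3 libraries between 1633 and 1704. *Ccl7*, a second monocyte chemoattractant that binds *Ccr2*, was at 2013, 1411, 1863, 1595 and 1350 CPM in the same order of libraries, highest in OVX and lowest in OVX_E2_P4_PBDE. *Ccl11*, known as eotaxin and a ligand of *Ccr3* on eosinophils, was at 1618, 1342, 1137, 1178 and 1009 CPM, again highest in OVX and lowest in OVX_E2_P4_PBDE. The range over libraries was thus modest for these genes, with the highest library 1.86 times the lowest for *Ccl2*, 1.49 times for *Ccl7* and 1.60 times for *Ccl11*.

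*Ccl8*, which in the mouse binds *Ccr8*, was at 79.6 CPM in OVX fibroblasts, 167 for OVX_E2, 135 for OVX_E2_PBDE, 105 for OVX_E2_P4 and 193 for OVX_E2_P4_PBDE. OVX was lowest, the reverse of *Ccl7* and *Ccl11*. *Ccl12*, another monocyte chemoattractant, had 0 UMIs in OVX fibroblasts, where 3 counts would be 0.218 CPM, against 75, 17, 5 and 6 UMIs in the other 4 libraries (11.2, 1.20, 0.889 and 1.5 CPM). Of the 75 UMIs in OVX_E2, 55 came from 1 barcode with 15755 UMIs in all and 152 fibroblast-marker UMIs, and without it OVX_E2 was at 3.00 CPM. Almost all *Ccl12* UMIs in fibroblasts (102 of 103) fell in the sub-cluster led by *Mfap4*, *Igfbp2*, *Mdk* and *Cthrc1*, in 1.78% of its barcodes, and OVX gave 9 of the 1125 barcodes of that sub-cluster. Myeloid barcodes held 3 *Ccl12* UMIs, at 2.98 CPM in OVX and 6.15 in OVX_E2_P4, both above the fibroblast level there. Over all libraries *Ccl12* was at 2.33 CPM in fibroblasts and 1.82 in myeloid barcodes, and the intervals overlapped.

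**Figure D2:**
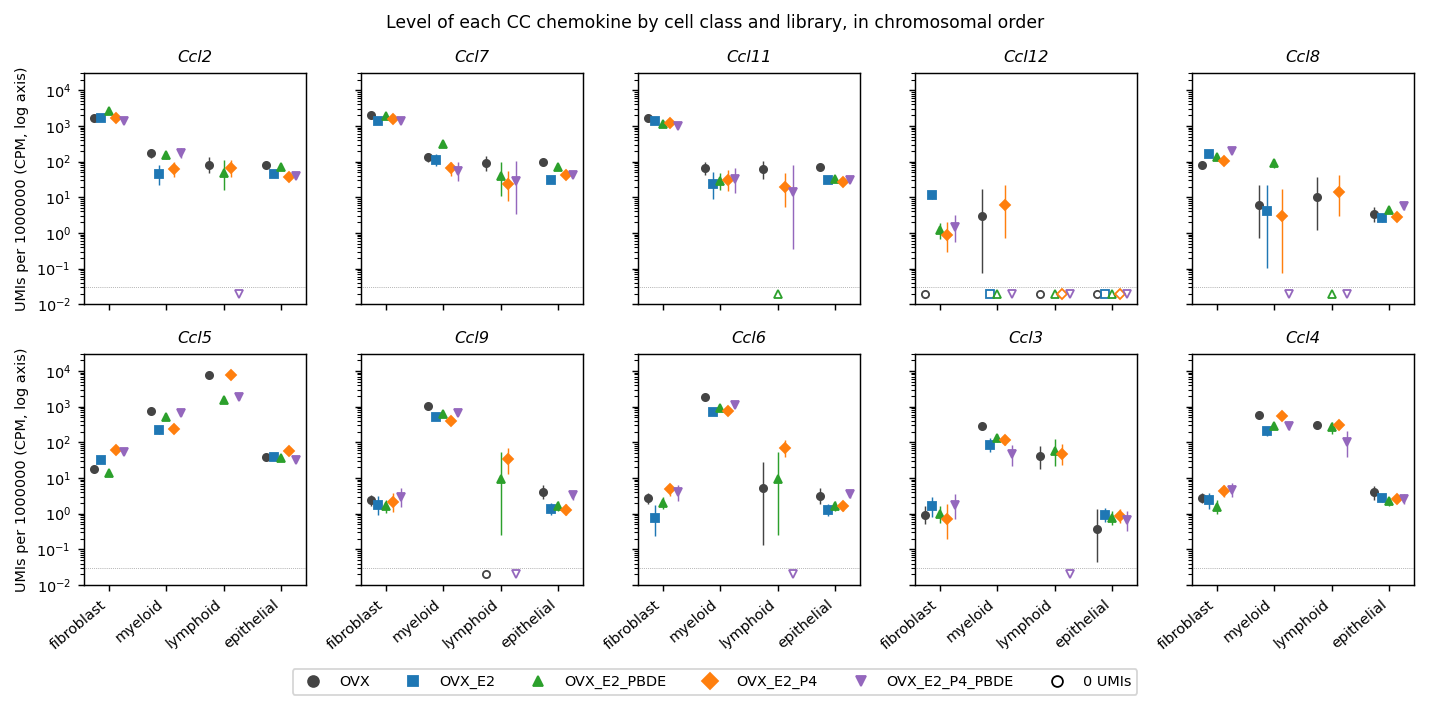
CPM (y axis, log scale) of each of the 10 genes, 1 panel a gene, in the 4 cell classes (x axis) with a marker for each library and bars for 95% counting intervals; open markers at the bottom stand for 0 UMIs and the single OVX_E2 lymphoid barcode is not shown. *Ccl2*, *Ccl7* and *Ccl11* lay above 1000 CPM in fibroblasts of every library, *Ccl6* between 698 and 1826 CPM in myeloid barcodes, and *Ccl5* between 1576 and 7768 CPM in lymphoid barcodes.

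Within fibroblasts, *Ccl2* was held by few barcodes and *Ccl11* by nearly all. The median fibroblast had 0 UMIs of *Ccl2* in 4 of 5 libraries and 1 in OVX_E2_PBDE, while single barcodes reached 102 to 277 UMIs. Fibroblasts with 50 or more *Ccl2* UMIs numbered 583, or 8.03%, and held 63.0% of the fibroblast *Ccl2* UMIs. They were 6.20% of fibroblasts in OVX, 7.23% for OVX_E2, 14.0% for OVX_E2_PBDE, 6.53% for OVX_E2_P4 and 2.82% for OVX_E2_P4_PBDE, the same extremes as the *Ccl2* level. The limit of 50 UMIs was not set for depth. OVX_E2_PBDE had the deepest fibroblasts (median 7032 UMIs) and OVX_E2_P4_PBDE the shallowest (4252), so these extremes also follow depth. *Ccl7* was skewed less, with 443 barcodes (6.10%) of 50 or more UMIs holding 46.7%. By contrast *Ccl11* had a median of 4 to 7 UMIs per fibroblast, 4.67% of fibroblasts at 0, and only 34 barcodes with 50 or more. *Ccl8* was at 0 in 69.3% of fibroblasts and never above 33 UMIs in one.

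**Figure D3:**
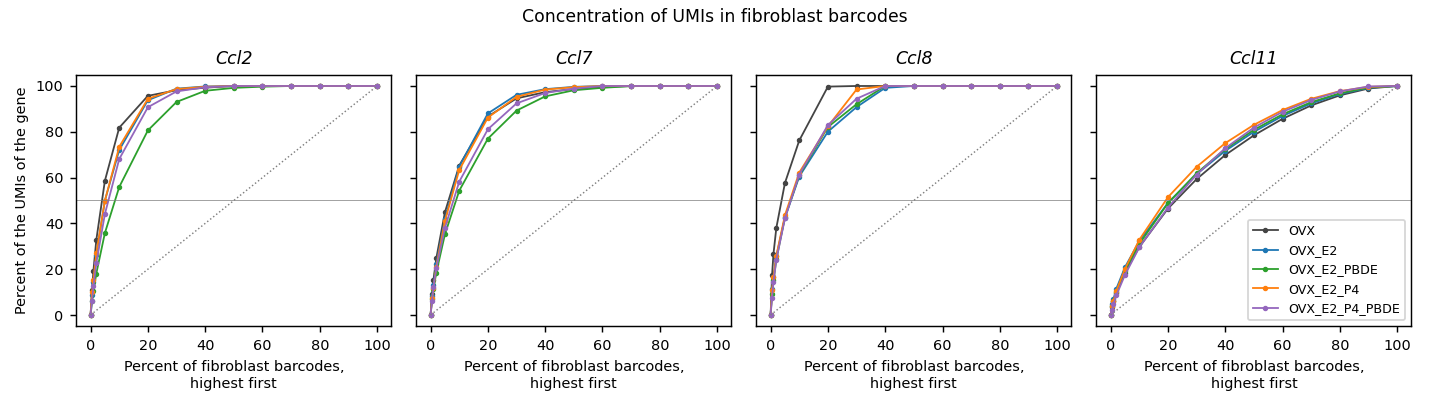
Cumulative share of fibroblast UMIs (y axis, percent) against the share of fibroblast barcodes ranked from highest to lowest (x axis, percent) for *Ccl2*, *Ccl7*, *Ccl8* and *Ccl11*, 1 line a library. The *Ccl11* lines rise least, with a median of 4 to 7 UMIs per barcode against 0 or 1 for *Ccl2* and 0 for *Ccl8*. At the highest 0.5% of barcodes the *Ccl8* lines lie above those of *Ccl2* in every library (17.29% against 10.85% in OVX).

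To set these shares on a common depth, each barcode was thinned to 3000 UMIs, which left out 0 barcodes. A *Ccl2* UMI was then in 38.0% of OVX fibroblasts, 33.8% for OVX_E2, 53.6% for OVX_E2_PBDE, 34.5% for OVX_E2_P4 and 38.4% for OVX_E2_P4_PBDE (unthinned 46.9%, 42.5%, 65.8%, 43.4% and 43.5%). In epithelial barcodes thinned shares were 22.2%, 7.45%, 17.7%, 8.58% and 10.3% (unthinned 54.2%, 31.3%, 57.2%, 30.0% and 29.6%), at median depths of 7605 to 13855 UMIs against 4252 to 7032 in fibroblasts. Of the epithelial barcodes, 428 held 50 or more fibroblast-marker UMIs, so their share is not a gauge of transcripts outside their cells of origin alone. In lymphoid barcodes, the gauge chosen for fibroblast transcripts outside their cells of origin, thinned shares were 18.9% in OVX, 23.1% in OVX_E2_PBDE and 13.5% in OVX_E2_P4 (unthinned 37.8%, 23.1% and 24.3%). In OVX_E2_P4_PBDE 0 of 13 lymphoid barcodes had one, with an interval that reached 24.7%. The fibroblast share thus stood above the epithelial share in every library at equal depth, and above the lymphoid share in the 4 libraries that gave one, although the lymphoid interval of OVX_E2_PBDE (5.04% to 53.8%) reached the fibroblast value. Myeloid shares were 27.9%, 3.03%, 15.7%, 8.93% and 15.9% (unthinned 45.9%, 15.2%, 42.9%, 23.2% and 20.5%), with intervals that held the epithelial share in all 5 libraries, and an interval of 17.2% to 40.8% in OVX that also held the fibroblast value. The *Ccl11* share was 93.4%, 87.5%, 86.2%, 84.2% and 84.1% of fibroblasts, and 18.7%, 8.28%, 7.06%, 5.84% and 8.13% of epithelial barcodes. *Ccl11* in myeloid barcodes, at 19.7%, 3.03%, 8.57%, 8.93% and 9.09%, was near the epithelial share, and the part of background in it was not tested. The *Ccl8* share was 13.8% of OVX fibroblasts and 21.2% to 27.5% in the other libraries, with at most 1.34% of epithelial barcodes in any library.

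In epithelial barcodes the first-block genes kept a small fraction of the fibroblast level. *Ccl2* was at 80.3 CPM in OVX epithelial barcodes, 44.3 for OVX_E2, 72.3 for OVX_E2_PBDE, 36.3 for OVX_E2_P4 and 38.4 for OVX_E2_P4_PBDE, which is 2.16% to 4.71% of the fibroblast level of the same library. The ratio of *Ccl11* to *Ccl2* was much alike in the 2 classes of each library, for example 0.95 in fibroblasts and 0.895 in epithelial barcodes of OVX, and 0.436 and 0.462 in OVX_E2_PBDE. The ratio of *Ccl7* to *Ccl2* was 1.18 in both classes of OVX but 0.714 and 0.953 in OVX_E2_PBDE. The 428 epithelial barcodes (of 6292) with 50 or more fibroblast-marker UMIs held 36.0% of the epithelial *Ccl2* UMIs, at 151 CPM against 37.1 CPM in the rest.

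Sub-clusters of fibroblasts were built without chemokine genes. Over the pooled libraries, *Ccl2* was highest in the sub-cluster led by *Krtdap* and *Sbsn* (4279 CPM), followed by those led by *Akr1c18* and *Cxcl10* (2774) and by *Mrgprg* and *Itgb7* (2578), and lowest in the one led by *Cxcl14* and *Vtn* (304). In libraries with 10 or more barcodes the ranges of the first 3 overlapped, at 2414 to 5084, 1614 to 3923 and 2380 to 4050 CPM. The *Cxcl14* sub-cluster ranged from 106 to 349 CPM. *Ccl8* was lowest in the *Krtdap* (48.0 CPM) and *Mrgprg* (53.2) sub-clusters and highest, at 230 CPM, in the one led by *Inmt* and *Igfbp3*. The *Akr1c18* sub-cluster, the largest with 1988 barcodes, was high for both genes, with *Ccl8* at 154 CPM and 36.6% of the fibroblast *Ccl8* UMIs. *Ccl11* varied least, from 899 to 1623 CPM. The *Mrgprg* sub-cluster came largely from 1 library, with 1246 of its 1355 barcodes from OVX, so its values and those of OVX cannot be told apart. Other sub-clusters were uneven too. OVX gave 709 of 886 *Cxcl14* barcodes, and OVX_E2_PBDE, the library with the highest fibroblast *Ccl2*, gave 410 of 769 *Krtdap* barcodes.

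The sub-clusters with the adventitial gene set around *Pi16* (2000 CPM or more of the set, a division made after the data were seen) were pooled as Pi16-high fibroblasts. They made up 52.9% of fibroblasts in OVX, 63.8% for OVX_E2, 70.4% for OVX_E2_PBDE, 53.6% for OVX_E2_P4 and 74.6% for OVX_E2_P4_PBDE. *Ccl2* in Pi16-high fibroblasts was at 2564, 2293, 3357, 2834 and 1752 CPM, against 504, 481, 702, 341 and 429 CPM in the others, so every library had the higher level in the Pi16-high set. *Ccl7* showed the same direction with 2448, 1853, 2196, 2399 and 1570 CPM against 1406, 641, 1014, 666 and 741. *Ccl8* was lower in the Pi16-high set of every library, at 50.1, 153, 124, 95.2 and 176 CPM against 121, 193, 164, 116 and 239. Neither set was uniform. Within the Pi16-high set, the 367 barcodes led by *Hbb-bs* and *Hba-a1* were at 553 CPM for *Ccl2*, 675 for *Ccl7* and 171 for *Ccl8*. Outside it, the *Inmt* sub-cluster was at 955 CPM for *Ccl2* and 2253 for *Ccl7*. *Ccl11* was close to even in OVX (1658 against 1564 CPM) and OVX_E2 (1335 against 1354), and higher in the Pi16-high set of OVX_E2_PBDE (1199 against 977), OVX_E2_P4 (1412 against 907) and OVX_E2_P4_PBDE (1079 against 816). The summed level of 16 early-response and heat-shock genes known to rise when tissue is dissociated moved with these sets too, and was lower in Pi16-high than in other fibroblasts in all 5 libraries (12200 against 23560 CPM in OVX, 7840 against 11520 in OVX_E2_PBDE). NF-kB and inflammatory genes summed the other way, higher in the Pi16-high set of all 5 libraries, at 2261, 2039, 2212, 1821 and 1767 CPM against 1636, 1223, 1291, 999 and 1185. The part of either list in the chemokine levels was not tested.

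**Figure D4:**
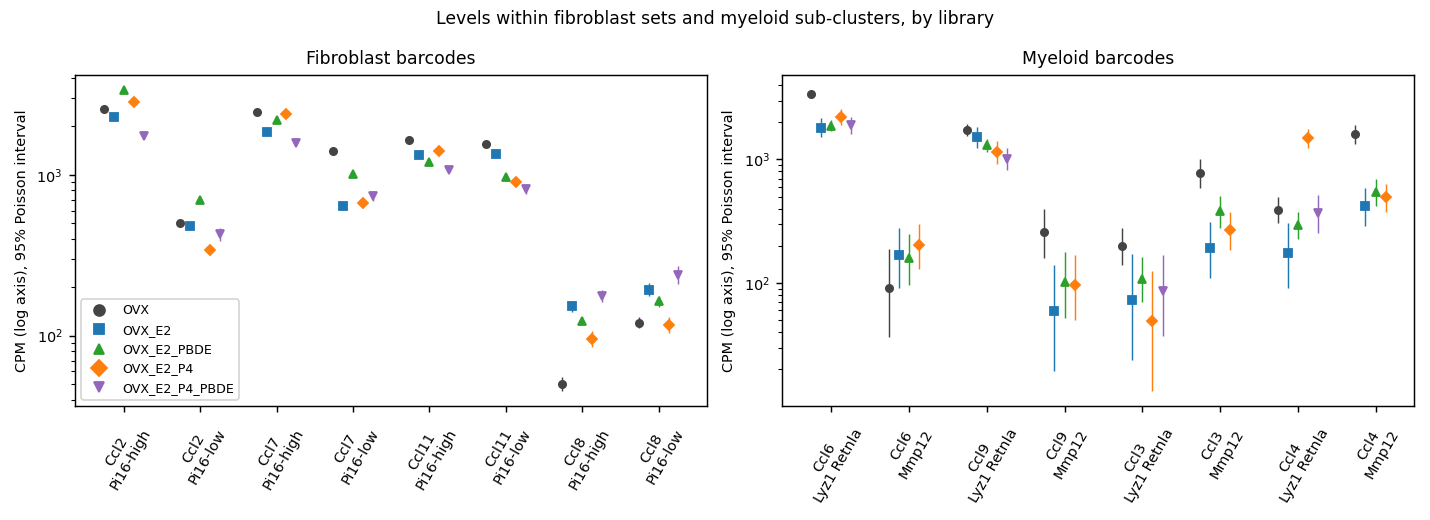
CPM by library for *Ccl2*, *Ccl7*, *Ccl11* and *Ccl8* in Pi16-high and other fibroblasts, and for *Ccl6*, *Ccl9*, *Ccl3* and *Ccl4* in the myeloid sub-clusters led by *Lyz1* and *Retnla* and by *Mmp12*, with bars for 95% counting intervals; OVX_E2_P4_PBDE had 3 *Mmp12* barcodes and is not drawn there. *Ccl2* was higher and *Ccl8* lower in Pi16-high fibroblasts of all 5 libraries.

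*Ccl2* and *Ccl7* were found in the same fibroblasts more often than the product of their shares. After thinning, 2094 fibroblasts held both against a product of 1569, and the ratio was between 1.21 and 1.58 in single libraries. *Ccl7* was in 70.1% of fibroblasts with *Ccl2* and in 40.2% of those without. *Ccl2* and *Ccl8* had no such pattern, with 606 barcodes against a product of 614.6. The longest stretch shared by a transcript of *Ccl2* and one of *Ccl7* was 23 bases, and the longest between any members 25 bases (*Ccl6* and *Ccl9*).

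Between OVX_E2 and OVX fibroblasts, 7 members had the 50 UMIs over both libraries needed to enter and 2 were more than 2-fold up, *Ccl8* and *Ccl12*, where 2.51% of all 10461 genes were. *Ccl8* was 2.10 times as high with E2 (1.93 to 2.29), 3.04 times in Pi16-high fibroblasts and 1.60 times in the others. *Ccl12* in OVX_E2 was at 51.4 times the 3-count floor of OVX, or 13.7 times without the single barcode described above. The counting interval of the ratio, with that barcode, began at 40.8. No member was 2-fold down (1.35% of all genes). *Ccl7* had a ratio of 0.701 (0.685 to 0.718), which was 0.757 in Pi16-high fibroblasts and 0.456 (0.431 to 0.481), past 2-fold down, in the others. Both sets differed in make-up between these libraries. The *Mrgprg* sub-cluster gave 1246 of 1358 Pi16-high barcodes in OVX and 60 of 600 in OVX_E2. Among the others the *Mfap4* sub-cluster gave 9 of 1207 and 242 of 340. Its *Ccl7* level was 338 CPM, against 1019 in the *Cxcl14* and 2253 in the *Inmt* sub-cluster. The part of this in the ratios within sets was not tested. *Ccl11* had a ratio of 0.829 and *Ccl2* of 0.958. With each barcode counted equally the *Ccl2* ratio was 1.10, so it had no firm direction. The summed dissociation-response genes went from 16950 CPM in OVX fibroblasts to 12550 in OVX_E2, and their part in these ratios was not tested. The median OVX fibroblast held 5196 UMIs, below the shallowest OVX_E2 barcode at 5395. OVX fibroblasts of that depth thus had no counterpart in OVX_E2, and their part in these ratios was not tested either. The median log2 ratio of the 7 members was -0.06, also with *Ccl12* taken against the floor, and that of all genes 0.05.

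The comparisons of P4, of PBDEs and of E2 itself share the OVX_E2 library, and 2 comparisons share OVX_E2_P4, so their values are not independent of each other. Between OVX_E2_P4 and OVX_E2, 6 members entered and 0 were 2-fold up (1.12% of all genes), while *Ccl12* was 2-fold down (0.384% of all genes) with a ratio of 0.0793 that rested on 5 UMIs in OVX_E2_P4 and was 0.227 without the highest barcode of each library. *Ccl8* had a ratio of 0.628 (0.567 to 0.694), *Ccl11* of 0.878, *Ccl2* of 1.03 and *Ccl7* of 1.13. For some of these the fibroblast sets gave different ratios. *Ccl2* was at 1.24 (1.20 to 1.27) in Pi16-high and 0.708 (0.648 to 0.773) in the other fibroblasts, and *Ccl11* at 1.06 and 0.670. *Ccl5*, at 1.87 in all fibroblasts, was at 0.868 and 4.15, but few barcodes set both values. In OVX_E2, 1 barcode held 75 of 164 *Ccl5* UMIs in the Pi16-high set, and 1 held 33 of 55 in the others. Without the highest barcode of each library, Pi16-high fibroblasts were at 32.6 CPM in OVX_E2_P4 and 21.0 in OVX_E2. The other fibroblasts were then at 62.7 and 9.07 CPM, so the opposite directions did not hold.

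Addition of PBDEs to E2 gave 6 members that entered and 0 that were 2-fold up (0.249% of all genes). *Ccl2* was 1.60 times as high (1.56 to 1.63), and the ratio was 1.46 both in Pi16-high and in the other fibroblasts. *Ccl7* had a ratio of 1.32 (1.29 to 1.35). *Ccl11*, from the same cells, had a ratio of 0.847 and *Ccl8* of 0.810. *Ccl12*, at 0.107, and *Ccl5*, at 0.411, were 2-fold down (1.16% of all genes). Without the highest barcode of each library *Ccl12* was at 0.269 and *Ccl5* at 0.578, so only *Ccl12* was then past the limit. The median log2 ratio of the 6 members was -0.27 against -0.18 over all genes.

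With E2 and P4 as the reference, PBDEs gave another order of values. Of 5 members that entered, 0 were 2-fold up (0.517% of all genes) and 0 were 2-fold down (1.79%). *Ccl8* was 1.84 times as high (1.65 to 2.05), with 1.85 in Pi16-high and 2.06 in the other fibroblasts. *Ccl2* had a ratio of 0.835 (0.808 to 0.863) that was made of 0.618 in Pi16-high fibroblasts and 1.26 in the others, while the Pi16-high set itself went from 53.6% to 74.6% of fibroblasts. The *Ccl7* ratio of 0.846 likewise split into 0.654 and 1.11. *Ccl11* was at 0.857. The ratios of *Ccl2* and *Ccl7* thus had one direction in Pi16-high fibroblasts and the opposite one in the others.

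**Figure D5:**
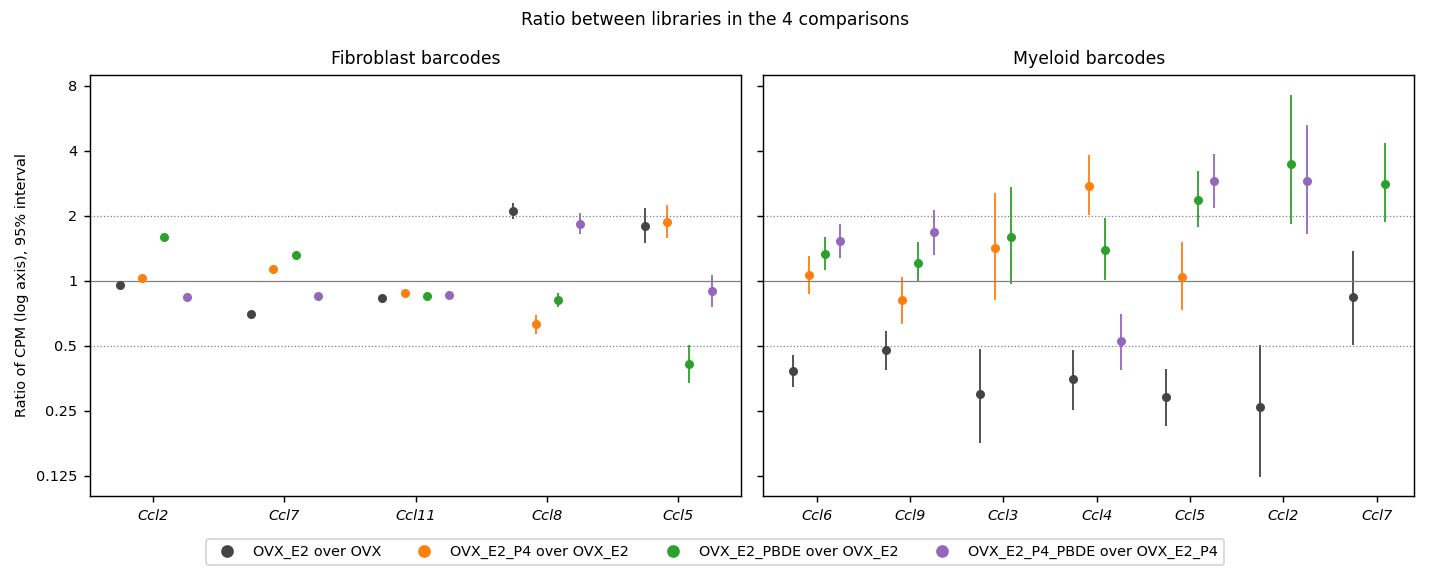
Ratio of CPM between libraries (y axis, log scale, dotted lines at 0.5 and 2) with 95% counting intervals for *Ccl2*, *Ccl7*, *Ccl11*, *Ccl8* and *Ccl5* in fibroblasts and *Ccl6*, *Ccl9*, *Ccl3*, *Ccl4*, *Ccl5*, *Ccl2* and *Ccl7* in myeloid barcodes, in 4 comparisons. In myeloid barcodes 6 of these genes lay below 0.5 for OVX_E2 over OVX, and in fibroblasts *Ccl2* was at 1.60 with PBDEs and E2 but at 0.835 with PBDEs, E2 and P4.

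*Ccl6* and *Ccl9*, rodent ligands of *Ccr1*, were largely in myeloid barcodes, which were 1.84% of all barcodes and held 73.5% of *Ccl6* and 65.8% of *Ccl9* UMIs. *Ccl6* was at 1826 CPM in OVX myeloid barcodes, 698 for OVX_E2, 929 for OVX_E2_PBDE, 741 for OVX_E2_P4 and 1127 for OVX_E2_P4_PBDE. *Ccl9* was at 1055, 502, 608, 406 and 678 CPM. OVX was highest for both. In fibroblasts and epithelial barcodes *Ccl6* and *Ccl9* were at 0.748 to 4.80 CPM in every library.

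*Ccl3* and *Ccl4*, the macrophage inflammatory proteins, were also highest in myeloid barcodes, with lower levels in lymphoid barcodes. *Ccl3* was at 283 CPM in OVX myeloid barcodes, 84.3 for OVX_E2, 134 for OVX_E2_PBDE, 120 for OVX_E2_P4 and 46.8 for OVX_E2_P4_PBDE. In lymphoid barcodes it was at 40.7, 58.0 and 47.5 CPM in OVX, OVX_E2_PBDE and OVX_E2_P4, on 6 to 10 UMIs, and the myeloid and lymphoid intervals overlapped in the last 2 of these. *Ccl4* was at 584, 205, 285, 562 and 295 CPM, against 316 for OVX, 261 for OVX_E2_PBDE, 299 for OVX_E2_P4 and 99.6 for OVX_E2_P4_PBDE lymphoid barcodes. For *Ccl4* the myeloid and lymphoid intervals overlapped in OVX_E2_PBDE, where 26 of the 27 lymphoid UMIs were in 1 barcode. One myeloid barcode of OVX_E2_P4 held 91 of the 183 *Ccl4* UMIs there, and without it that library was at 290 CPM.

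The myeloid genes divided by sub-cluster. *Ccl6* and *Ccl9* were highest in the 109 barcodes led by *Lyz1*, *Retnla*, *Fcrls* and *Mrc1*, at 2331 and 1382 CPM, with a UMI in 81.7% and 89.0% of barcodes. The fixed markers scored this sub-cluster as dendritic (0.773) above macrophage (0.279). *Ccl3* and *Ccl4* were highest in the 73 barcodes led by *Mmp12* and the complement genes *C1qa*, *C1qb* and *C1qc*, at 370 and 691 CPM, with a UMI in 53.4% and 42.5%. In OVX_E2_P4, however, *Ccl4* was higher in the barcodes led by *Lyz1*, at 1486 against 494 CPM. Without the highest barcode of each sub-cluster these values were 410 and 244 CPM. The fixed markers scored the *Mmp12* sub-cluster as macrophage (0.843) above dendritic (0.668), and *Ccl6* and *Ccl9* were there at 161 and 122 CPM. In thinned myeloid barcodes *Ccl6* and *Ccl9* occurred together in 100 against a product of 64.1, and *Ccl9* was in 70.9% of barcodes with *Ccl6* and 16.3% of those without. *Ccl3* and *Ccl4* occurred together in 30 against a product of 12.7. The *Lyz1* sub-cluster made up 52.5% of myeloid barcodes in OVX, 30.3% for OVX_E2, 44.3% for OVX_E2_PBDE, 26.8% for OVX_E2_P4 and 47.7% for OVX_E2_P4_PBDE, an order close to that of the *Ccl6* level.

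Between OVX_E2 and OVX myeloid barcodes (33 against 61), 6 of the 7 members that entered were more than 2-fold lower, where 6.65% of 1294 genes were, and 0 were 2-fold higher (1.70%). The median OVX myeloid barcode held 5054 UMIs, below the shallowest OVX_E2 barcode at 5395. OVX myeloid barcodes of that depth thus had no counterpart in OVX_E2, and their part in the ratios was not tested. With the mixed hematopoietic barcodes added, which were 39.5% of hematopoietic barcodes in OVX and 8.11% in OVX_E2, 2 members were past 2-fold, and *Ccl3*, *Ccl4*, *Ccl6* and *Ccl9* were at 0.567, 0.654, 0.680 and 0.735. Without them the ratios were 0.298 (0.176 to 0.482) for *Ccl3*, 0.351 (0.252 to 0.479) for *Ccl4*, 0.382 (0.321 to 0.453) for *Ccl6*, 0.476 (0.385 to 0.585) for *Ccl9*, 0.289 for *Ccl5* and 0.260 for *Ccl2*. The median log2 ratio of the 7 members was -1.49 against -0.03 over all genes. Part of this moved with the sub-clusters. Within the *Lyz1* sub-cluster, *Ccl6* was at 3394 CPM in OVX and 1814 in OVX_E2, a ratio of 0.534 (0.437 to 0.650), and *Ccl9* had a ratio of 0.866 (0.686 to 1.09) whose interval held 1. Within the *Mmp12* sub-cluster (17 and 11 barcodes) the ratios were 0.247 for *Ccl3*, 0.261 for *Ccl4* and 0.228 for *Ccl5*, no weaker than in all myeloid barcodes. The *Ccl2* value, from barcodes whose thinned shares were near or below the epithelial ones in these libraries, rested on 11 UMIs in OVX_E2, of which 1 barcode held 7, and was 1.12 when each barcode was given its class by its own marker UMIs. The dissociation-response genes summed to 6021 CPM in OVX myeloid barcodes and 3857 in OVX_E2, with 4 of the 15 that entered 2-fold lower (*Egr1*, *Ier3*, *Dusp1* and *Dnajb1*). Of 13 NF-kB and inflammatory genes, *Tnf* and *Il1a* were 2-fold lower. The part of either list in the chemokine values was not tested.

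Between OVX_E2_P4 and OVX_E2 myeloid barcodes, 1 of 5 members was 2-fold higher (1.27% of all genes), *Ccl4* at 2.75 (2.00 to 3.83), and 0 were 2-fold lower (1.44%). Without the highest barcode of each library the *Ccl4* ratio was 2.07. *Ccl6* was at 1.06 and *Ccl9* at 0.809, with intervals that held 1.

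With PBDEs added to E2, 3 of 7 members were 2-fold higher in myeloid barcodes (1.82% of all genes): *Ccl2* at 3.46, *Ccl7* at 2.81 and *Ccl5* at 2.37. None was 2-fold lower (1.30%). The thinned share of myeloid barcodes with *Ccl2* was 15.7% in OVX_E2_PBDE and 3.03% in OVX_E2, and with *Ccl7* 18.6% and 18.2%, against epithelial shares of 17.7% and 7.45% for *Ccl2* and 14.3% and 6.46% for *Ccl7* (unthinned myeloid *Ccl7* 38.6% and 27.3%, epithelial 52.6% and 30.0%). The myeloid shares of both genes in OVX_E2_PBDE were thus near the epithelial ones, and in OVX_E2 only *Ccl7* (interval 6.98% to 35.5%) stood above its epithelial share. The levels stood further apart. In OVX_E2_PBDE *Ccl2* was at 153 CPM in myeloid and 72.3 in epithelial barcodes, and *Ccl7* at 315 and 68.9. Without its highest barcode the *Lyz1* sub-cluster was at 150 CPM for *Ccl2* and 328 for *Ccl7*, against 50.7 and 76.0 in the *Mmp12* sub-cluster. The part of background in the *Ccl2* and *Ccl7* calls was not tested, so they are not read as a difference in myeloid expression. For *Ccl5*, 10 of the 70 OVX_E2_PBDE myeloid barcodes had 3 or more T and natural killer (NK) cell marker UMIs and held 52.6% of the UMIs, and the rest were at 288 CPM against 182 CPM in the rest of OVX_E2, less than 2-fold apart. One OVX_E2_PBDE myeloid barcode, with 129 hematopoietic-marker and 6 fibroblast-marker UMIs among 7597, held 29 of the 80 *Ccl2*, 68 of the 165 *Ccl7* and all 48 *Ccl8* UMIs of its class, together with 59 of *Ccl6* and 26 of *Ccl9*. Without it *Ccl2* was at 98.9 and *Ccl7* at 188 CPM, and the next barcode held 50 *Ccl7* UMIs. In OVX_E2 a single barcode held 19 of 28 *Ccl7* UMIs, and with the highest barcode of each library left out the *Ccl2* ratio was 4.89 and that of *Ccl7* 4.61. *Ccl6* had a ratio of 1.33 (1.12 to 1.59) in all myeloid barcodes and of 1.04 (0.846 to 1.28) within the *Lyz1* sub-cluster.

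PBDEs with E2 and P4 gave 2 of 5 members 2-fold higher (3.21% of all genes), *Ccl2* at 2.89 (1.64 to 5.25) and *Ccl5* at 2.88 (2.16 to 3.87), and 0 lower (4.11%). *Ccl2* was in 15.9% and 8.93% of thinned myeloid barcodes against 10.3% and 8.58% of epithelial ones. Its levels were 178 and 61.5 CPM in myeloid barcodes against 38.4 and 36.3 CPM in epithelial ones. In OVX_E2_P4_PBDE 1 barcode held 11 of the 38 myeloid *Ccl2* UMIs. The part of background in this call was not tested. Of the 44 OVX_E2_P4_PBDE myeloid barcodes, 6 held 3 or more T and NK marker UMIs and 70.4% of the *Ccl5* UMIs, and the rest were at 227 CPM, against 118 CPM in the rest of OVX_E2_P4. With classes set by each barcode's own markers the *Ccl5* ratio was 0.665. *Ccl4* had a ratio of 0.524 (0.387 to 0.701), or 0.695 without the highest barcode of each library. *Ccl6* at 1.52 and *Ccl9* at 1.67 were at 0.850 and 0.888 within the *Lyz1* sub-cluster, whose share of myeloid barcodes went from 26.8% to 47.7%.

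*Ccl5*, made by cytotoxic T and NK cells, was highest in lymphoid barcodes. It was at 7768 CPM in 37 OVX barcodes, 1576 in 13 of OVX_E2_PBDE, 7728 in 37 of OVX_E2_P4 and 1864 in 13 of OVX_E2_P4_PBDE. Without the highest barcode of each library these were 5535, 1121, 6629 and 1130 CPM, so the 2 PBDE libraries stayed below the other 2. One OVX barcode alone held 458 of the 1526 UMIs there. The sub-cluster led by *Gzmb* and *Gzmc* stood at 8690 CPM, with a UMI in 74.6% of its barcodes, and the plasma-cell sub-cluster at 346 CPM. Plasma cells were 3 of 37 lymphoid barcodes in OVX, 4 of 13 in OVX_E2_PBDE, 4 of 37 in OVX_E2_P4 and 2 of 13 in OVX_E2_P4_PBDE. The part of this make-up in the levels by library was not tested. Thinned shares with a *Ccl5* UMI were 62.2%, 46.2%, 70.3% and 46.2% of lymphoid barcodes in these libraries (unthinned 64.9%, 53.8%, 73.0% and 46.2%), against 3.06% to 7.29% of epithelial barcodes.

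Lymphoid barcodes held only 31.3% of the *Ccl5* UMIs and epithelial barcodes 36.5%. T and NK markers also occurred in barcodes of other classes. Epithelial barcodes with 3 or more UMIs of these markers held 27.9% of the epithelial *Ccl5* UMIs, so most of these UMIs lay in barcodes without that many. Taken from all classes, the barcodes with 5 or more T and NK marker UMIs numbered 63 for OVX, 28 for OVX_E2, 33 for OVX_E2_PBDE, 48 for OVX_E2_P4 and 26 for OVX_E2_P4_PBDE. They held 77.5%, 71.1%, 42.5%, 56.5% and 31.5% of the *Ccl5* UMIs of their library, at 6133, 2412, 2533, 5599 and 2262 CPM. On this count, which also covers OVX_E2, OVX and OVX_E2_P4 were again higher than the other 3 libraries, here by more than 2 times. All 28 of these OVX_E2 barcodes lay outside the lymphoid class. Of these, 22 were epithelial, a class with a median of 13462 UMIs in OVX_E2. In OVX, 31 of the 63 were lymphoid, with a class median of 4142 UMIs. The CPM are thus taken over barcodes of unlike depth and class, and the part of this in the gap was not tested. A *Ccl5* UMI was in 76.2%, 57.1%, 81.8%, 81.3% and 69.2% of these barcodes in the 5 libraries.

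Single barcodes set much of the *Ccl5* level elsewhere. In fibroblasts *Ccl5* was at 18.3, 32.8, 13.5, 61.4 and 54.9 CPM. In OVX_E2, 7 fibroblast barcodes with 3 or more T and NK marker UMIs held 75.8% of it and the rest were at 8.0 CPM, below the 18.3 CPM of OVX. For OVX_E2_P4, 7 such fibroblast barcodes held 52.2% and the rest were at 29.6 CPM. The OVX_E2 over OVX ratio of 1.79 was 0.506 when barcodes with markers of another class were left out, and the OVX_E2_PBDE over OVX_E2 ratio of 0.411 was then 1.54, so neither direction held. Among epithelial barcodes of OVX_E2, 24 with 3 or more T and NK marker UMIs held 656 of the 855 *Ccl5* UMIs (76.7%). The rest were at 9.13 CPM, against 38.6 CPM in the whole class. In the other libraries such barcodes held 9.77% to 34.3% of epithelial *Ccl5* UMIs. In epithelial barcodes 1 OVX_E2_P4 barcode held 712 of the 1504 *Ccl5* UMIs, with 66 in the next. It had 13280 UMIs, 77 of epithelial markers, 3 of hematopoietic and 0 of T or NK markers, in a luminal alveolar-like cluster. The class was at 57.7 CPM with it and 30.4 without. A like barcode in OVX_E2_PBDE held 378 of 961 UMIs, with 121 UMIs of epithelial, 1 of hematopoietic and 0 of T or NK markers, and the class was at 36.8 CPM with it and 22.3 without. Over all libraries, 160 barcodes with 10 or more *Ccl5* UMIs held 8460 of the 11000, and 119 of these had 5 or more T and NK marker UMIs while 26 had 0, of which 14 were epithelial and 9 myeloid.

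The receptors of these ligands were sparse. Of 15 receptor genes of the family, 6 were highest in myeloid barcodes, led by *Ccrl2* at 257, *Ccr2* at 138, *Ccr7* at 117 and *Ccr1* at 64.4 CPM. *Ccr2*, the receptor of *Ccl2* and *Ccl7*, was at 167, 108, 122, 111 and 211 CPM of myeloid barcodes in the 5 libraries. *Ccr8*, the receptor of *Ccl8*, was highest in lymphoid barcodes at 8.49 CPM, and *Ccr3*, the receptor of *Ccl11*, had 2 UMIs in all. The atypical receptors *Ackr1*, *Ackr2* and *Ackr4*, which bind chemokines without signalling for migration, were highest in fibroblasts at 21.5, 16.4 and 6.01 CPM. Among 4 receptors that entered between OVX_E2 and OVX myeloid barcodes, *Ccr7* was 2-fold lower. Of 11 other CC chemokine genes, *Ccl24*, an eotaxin, at 122 CPM and *Ccl22* at 40.7 CPM were the highest in any class, both in myeloid barcodes, and *Ccl26* had 0 UMIs. *Ccl24* was at 203 CPM in OVX myeloid barcodes, 60.2 CPM in OVX_E2, 103 CPM in OVX_E2_PBDE, 36.9 CPM in OVX_E2_P4 and 243 CPM in OVX_E2_P4_PBDE, held by 4 to 11 barcodes a library.

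The 4 lists (receptors, other CC chemokines, NF-kB and inflammatory genes, dissociation stress) were counted in the same way in the other comparisons. In fibroblasts, OVX_E2 over OVX had 0 genes 2-fold up in any list, and the genes 2-fold down were *Hspa1a* and *Hspa1b* of 16 stress genes, *Il1b* and *Ptgs2* of 14 NF-kB and inflammatory genes and *Ccl19* of 3 other CC chemokines, where 1.35% of all genes were. P4 added to E2 gave *Hspa1b* 2-fold up in fibroblasts (1.12% of all genes) and *Egr1* in myeloid barcodes (1.27%), and PBDEs added to E2 gave 0 genes of the 4 lists past 2-fold in either class. PBDEs with E2 and P4 gave *Ackr4* and *Ccl19* up (0.517% of all genes) and *Ccrl2* and *Hspa1b* down (1.79%) in fibroblasts, and *Ccl24* up (3.21%) and *Ccrl2* and *Hspa1a* down (4.11%) in myeloid barcodes. Of the 41 *Ccl19* UMIs in OVX_E2_P4_PBDE fibroblasts, 28 were in 1 barcode.

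Over 22 sums of class and library, which share cells, depth and class, the genes most like each member in log2 CPM were as follows. *Ccl2* was most like *Lpar1* (Pearson's r 0.952), *Fndc1* and *Mfap5*, and *Ccl7* like *Lpar1* (0.947), *Dpt* and *Sfrp2*. For *Ccl11* they were *Adamts2* (0.978), *Rnase4* and *Col3a1*, and for *Ccl8* *Ano3* (0.924), *Lgi3* and *Necab3*. *Ccl6* was most like *Lyz2* (0.991), *H2-Eb1* and *Ear2*, *Ccl9* like *Fcgr3* (0.989), *Clec4b1* and *Fcrls*, and *Ccl3* like *Lilr4b* (0.979), *Runx3* and *Fcer1g*. *Ccl4* was most like *Ccr2* (0.977), and *Ccl5* like *Nkg7* (0.949), a gene of cytotoxic granules, *Klrk1* and *Xlr4b*. *Ccl12*, with few UMIs, reached 0.729 with *Il31ra*, followed by *Alx4* and *Fam180a*.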

How the data were processed

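Single-cell suspensions of the 4th mammary glands were measured in 5 libraries, 1 per group, with the Chromium 3′ v2 kit. The lymph node was removed and dead cells were depleted before loading. The authors deposited raw UMI counts per gene and barcode, and the submitters' processing notes name Cell Ranger 2.0.0 and the build mm10. Barcodes with at least 500 genes, 1000 UMIs and at most 10% mitochondrial UMIs were kept. Each library was clustered in Seurat 5.3.0 (R 4.3.3; 2000 variable genes, 10 principal components, 20 neighbours, resolution 0.3 for OVX and 0.5 for the others), and hematopoietic and fibroblast barcodes were pooled and clustered again. Chemokine, receptor, NF-kB and stress genes were kept out of the variable genes. A cluster was named with a marker score of at least 0.25 and 3 markers at 200 CPM or more. Doublets were not removed, and Scrublet scores (scanpy 1.11.5, 30 components) served as an alternative that left out the 20% highest.

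UMIs were summed per class and library, with exact Poisson intervals for CPM, Clopper-Pearson intervals for shares and conditional binomial intervals for ratios (scipy 1.17.1, numpy 2.4.6, pandas 2.3.3, Python 3.11.15). With 1 library per group no test was run. Calls past 2-fold used sums with 1 UMI added and genes with 50 UMIs over both libraries, and were checked on simulated data. Promoters from RefSeq were aligned in Biopython 1.88, and plots were drawn in matplotlib 3.10.9. All 10 members were named, with the genes of highest Pearson's r to each among those with 100 UMIs in class and library sums of at least 20 barcodes. Members, lists and rules were chosen with earlier results of these data known. Alternatives changed the class assignment, the mitochondrial threshold, the resolution, the doublet score, barcodes with foreign markers, the highest barcode, the weighting of barcodes, the added UMI, the UMI minimum and the fold. A gene withheld here is not reported.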

Additional observations from a re-analysis of the deposited data

Results flagged for a closer look

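In 4 cases the PBDE libraries moved one way without progesterone and the opposite way with it, beyond counting intervals on both sides. In each the difference was not tested because every group was 1 library. The share of all genes that met the same rule is not given here, so the 4 cases are not read as particular to these genes. In fibroblasts the ratio of *Ccl2* was 1.60 for OVX_E2_PBDE over OVX_E2 and 0.835 for OVX_E2_P4_PBDE over OVX_E2_P4. That of *Ccl7* was 1.32 without and 0.846 with progesterone. The ratio of *Ccl8* ran against both, at 0.810 without and 1.84 with progesterone. In myeloid barcodes *Ccl4* was at 1.39 without and 0.524 with progesterone, where 1 OVX_E2_P4 barcode held 91 of 183 UMIs, and at 1.61 and 0.695 without the highest barcode of each library, but at 0.982 and 0.617 with the mixed hematopoietic barcodes added, which ends the opposite directions. Within fibroblasts outside the Pi16-high set, the ratios with progesterone were 1.26 for *Ccl2* and 1.11 for *Ccl7*, the same direction as without it.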

How the results depend on the processing

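With 1 library per group, intervals cover counting error only. Myeloid values rest on 33 to 70 and lymphoid values on 13 to 37 barcodes a library. Of 611 recomputed member ratios (sums with 1 UMI added), 459 moved by no more than their counting interval, 133 moved further and 19 reversed. The 5% mitochondrial threshold changed none of 81 ratios. Classes by each barcode's own markers reversed *Ccl5* in fibroblasts (0.490 for OVX_E2 over OVX, 1.43 for OVX_E2_PBDE over OVX_E2), *Ccl2* in myeloid barcodes for OVX_E2 over OVX (1.12) and *Ccl5* there for OVX_E2_P4_PBDE over OVX_E2_P4 (0.665). Resolution 1.0 put fibroblast *Ccl5* at 0.714 and 1.03 in those first 2 comparisons, and leaving out barcodes with foreign markers at 0.506 and 1.54. Without the 20% highest Scrublet scores, epithelial *Ccl2* was at 1.38 (OVX_E2_P4 over OVX_E2) and epithelial *Ccl5* at 1.30 (OVX_E2_P4_PBDE over OVX_E2_P4), and no myeloid comparison was given since 0 OVX_E2 and 8 OVX_E2_P4_PBDE myeloid barcodes were left. Mixed hematopoietic barcodes added to the myeloid class gave 0.982 for *Ccl4* and 0.911 for *Ccl6* (OVX_E2_PBDE over OVX_E2). Equal weight for each barcode gave *Ccl2* in fibroblasts 1.10 (OVX_E2 over OVX), and leaving out the highest barcode gave epithelial *Ccl5* 0.942 (OVX_E2_P4 over OVX_E2). For OVX_E2_P4 over OVX_E2, Pi16-high fibroblasts gave 0.871 for *Ccl5*, with the single-barcode limit given above, and 1.06 for *Ccl11*. *Ccl12* had 0 UMIs in the Pi16-high set of both libraries. Its value of 1.41 there came from the added UMI alone and is not a measured ratio. For OVX_E2_P4_PBDE over OVX_E2_P4, the other fibroblasts gave 1.26 for *Ccl2* and 1.11 for *Ccl7*. Counts of members past 2-fold were within 1.5 times of the value given in 63 of 84 cases. In fibroblasts, with 2, 1, 2 and 0 members past 2-fold in the 4 comparisons, own-marker classes gave 5 for OVX_E2 over OVX, and OVX_E2_P4 over OVX_E2 gave 2 under own-marker classes, resolution 1.0, no foreign markers, no highest barcode, equal weight or a minimum of 20 UMIs, and 3 at 1.5-fold. OVX_E2_PBDE over OVX_E2 gave 1 under resolution 1.0, no foreign markers, no highest barcode or equal weight, and OVX_E2_P4_PBDE over OVX_E2_P4 gave 1 at 1.5-fold. In myeloid barcodes, with 6, 1, 3 and 2 members, own-marker classes gave 2 for OVX_E2_P4 over OVX_E2 and 1 for OVX_E2_PBDE over OVX_E2, mixed barcodes added gave 2, 3, 5 and 4, no foreign markers gave 1 and a 1.5-fold limit 5 for OVX_E2_P4_PBDE over OVX_E2_P4. The Pi16 division and the mixed barcodes were alternatives chosen after seeing the data. The cause of these shifts was not tested. No paired analysis was possible because each group was 1 library.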

Other observations

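In the 146 mixed hematopoietic barcodes, which belonged to no class of the report, *Ccl5* was at 1675 CPM in OVX, 1411 CPM in OVX_E2_PBDE, 1034 CPM in OVX_E2_P4 and 785 in OVX_E2_P4_PBDE, with 3 UMIs in the 3 barcodes of OVX_E2. *Ccl2* there was at 479 CPM in OVX, 1324 CPM in OVX_E2_PBDE, 21.7 CPM in OVX_E2_P4 and 1243 in OVX_E2_P4_PBDE. The 27 barcodes that failed the filters held 88 *Ccl8* UMIs, 1.45% of the total of that gene.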
